A study of Caenorhabditis elegans with 2 samples.

Results

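Aminoacyl-tRNA synthetases attach each amino acid to its matching tRNA and so supply both of the cell's translation systems. The genes described here are the 32 protein-coding genes of the Ensembl annotation of the WBcel235 genome whose symbol is a 1-letter amino acid code followed by "ars" and a number, out of 19973 protein-coding genes on the nuclear chromosomes. Their promoters were examined for the tagged DNA-associated protein R02D3.7 (gene rcat-1) in Caenorhabditis elegans. The data are ChIP-seq peak lists from 1 group of 2 biological replicates of whole L2 larvae, males and females pooled, at an age given as unknown. The strain, OP218 with genotype unc-119(ed3) III; wgIs218, carries an integrated insertion that makes R02D3.7 fused to eGFP. Both replicates carry the same allele and insertion, so nothing separates binding from an effect of the tag or the strain. The labels name the antibody only as R02D3.7, while they describe the experiment as directed at the eGFP fusion. A signal from whole animals cannot be assigned to a tissue, and strong binding in few cells and weak binding in many cannot be told apart. Read depth is unknown, and control reads were not analysed here.

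Animal cells need synthetases in the cytosol, where ribosomes translate nuclear messages, and in mitochondria, where a separate ribosome translates the few messages of the mitochondrial genome. For some amino acids a pair of nuclear genes encodes the cytosolic and the mitochondrial enzyme, and for some others 1 gene supplies both compartments. The enzymes fall into classes I and II, which differ in the fold of the catalytic domain. By this grouping 14 genes encode cytosolic enzymes or subunits, 12 encode mitochondrial enzymes, and 6 are kept apart as single genes: cars-1, gars-1, hars-1, kars-1, qars-1 and tars-1. A gene was called single when no second gene for its amino acid was found, either by the symbol rule or among 4 synthetase genes with other names. Whether each single gene serves both compartments was not examined. The compartment came from the RefSeq product name for 12 genes and from the partner's product name for 6. General knowledge gave it for 8, which are fars-1, fars-2, fars-3, lars-1, lars-2, vars-1, yars-1 and yars-2. Numbers in these symbols do not name the compartment, since aars-1 is the mitochondrial and aars-2 the cytosolic alanine enzyme. Synthetase genes under other names fall outside the rule, among them glp-4, the cytosolic valine enzyme. For that reason vars-1, mars-1 and wars-1, each alone for its amino acid by symbol, were grouped by compartment: their partners are glp-4, Y105E8A.20 and prx-10.

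The deposited lists hold 30000 candidate regions for each replicate and for the joined reads, and 542 regions in a set built from both replicates by the irreproducible discovery rate (IDR). Each region has a signal from the authors' peak caller, whose scale is not stated, and a summit, the position of highest enrichment. The joined list's candidates begin at a signal of 11.57, and the IDR set runs from 39.12 to 1699 with a median of 69.28. All 542 IDR regions are the 542 strongest of the joined list, so membership in the set follows the joined signal. A gene was called bound when a summit lay within 1000 bp before or 200 bp after 1 of its annotated 5′ ends, and the strongest such summit gave its value. Replicate 1 has the higher values as a list, with a median candidate signal of 10.28 against 6.631 in replicate 2, so the replicates are best set side by side by rank.

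Of the 32 synthetase genes, 4 had an IDR summit in the promoter window, against a background of 3.47% of all protein-coding genes (694 of 19973). The 4 are fars-1 and nars-1, for cytosolic enzymes, and aars-1 and ears-2, for mitochondrial enzymes. They make up 12.5% of the genes, with a 95% Wilson interval of 4.97% to 28.1% that covers counting error only. The background share lies below this interval, but genes are not replicates and no test was made. By compartment the count was 2 of 14 cytosolic genes (14.3%, interval 4.01% to 39.9%) and 2 of 12 mitochondrial genes (16.7%, interval 4.7% to 44.8%). These intervals overlap almost wholly, and a difference between the compartments was not detectable with so few genes. None of the 6 single genes, as defined above, was called, which allows a share of up to 50%.

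**Figure D1:**
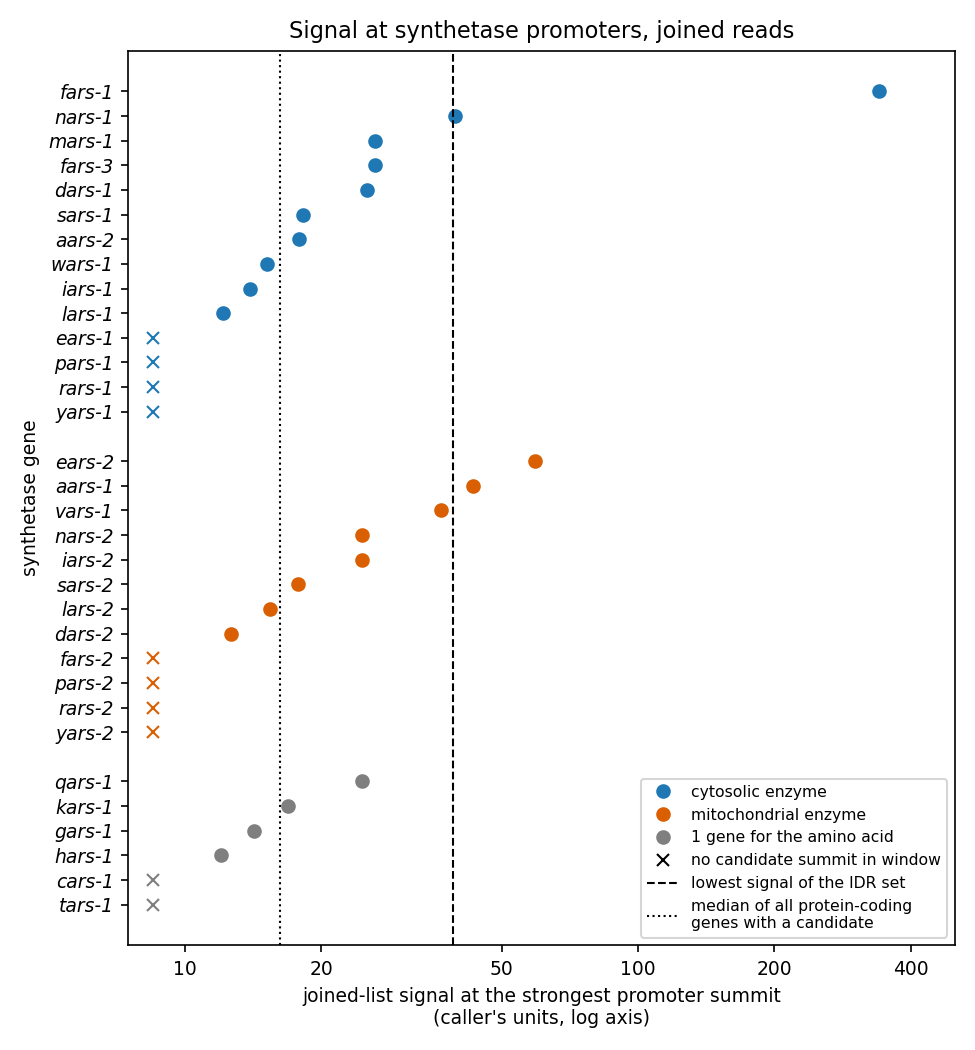
Signal of the strongest joined-list summit in the promoter window of each of the 32 synthetase genes, on a log axis in the caller's units, ordered within compartment. The dashed line is the lowest signal of the IDR set (39.12) and the dotted line the median of all protein-coding genes with a candidate (16.17). A cross marks a gene with no candidate, placed at the left edge. The 4 called genes lie right of the dashed line, fars-1 far from the rest and nars-1 almost on the line.

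The glutamate enzyme of mitochondria, ears-2, had the second highest joined signal of the family. Its summit on chromosome IV lay at 390465, 3 bp inside the annotated 5′ end and so within the 5′ UTR. The signal at ears-2 was 59.3 in the joined list (rank 338), 41.56 in replicate 1 (rank 356) and 17.59 in replicate 2 (rank 341). The 3 lists thus place ears-2 within a narrow band of ranks. A divergent gene, uncp-18, starts 92 bp away, so the same summit lies 95 bp upstream of uncp-18. With any assignment by distance this summit belongs to ears-2 first.

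The mitochondrial alanine enzyme, aars-1, had a summit on chromosome II at 11464120, in a region from 11463955 to 11464284. Its signal was 43.29 in the joined list (rank 463), 26.24 in replicate 1 (rank 607) and 18.52 in replicate 2 (rank 308). In replicate 1 alone aars-1 would fall outside the 542 strongest regions. This gene has 2 annotated 5′ ends: the summit lies 99 bp upstream of the inner one and 377 bp inside the gene from the outer one, in the 5′ UTR of the longer transcript. When only the outer, most upstream 5′ end was used, aars-1 was not called. The divergent neighbour rga-1 has its nearest 5′ end 774 bp from the summit.

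Stretches at these mitochondrial promoters are shown with the short words found in them in capitals. The search covered both strands for the word CGTAAA, for the word ACGCGC and for the word GACGCA. It also covered the longer CGTAAATC, which contains the first of them. An earlier analysis of these peaks picked these words because they were frequent at IDR summits, so their presence at 4 of those summits is a description. Sequences are from the RefSeq copy of WBcel235 (ce11), written on the strand of the synthetase gene. The ears-2 pieces are 30 bases around its summit (chrIV:390445-390474, minus strand) and the bases between the divergent 5′ ends (chrIV:390469-390559, minus strand). They overlap at one end, and the second holds none of the words. The aars-1 piece is 30 bases next to its summit (chrII:11464077-11464106, minus strand).
ears-2, around the summit: acttgcaaatagACGCGCcgcgcctttgcg
ears-2, between the 5′ ends: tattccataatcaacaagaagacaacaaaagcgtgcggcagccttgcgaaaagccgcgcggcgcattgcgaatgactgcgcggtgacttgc
aars-1, next to the summit: ggccagtgtaGATTTACGgcacattttctc

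The capitals in ears-2 are ACGCGC, and those in aars-1 are CGTAAATC read on the other strand. The promoters also differ in base composition. Within 50 bp of the summit, G and C made up 57.4% of the bases at ears-2 and 31.7% at aars-1, the highest and lowest of the 4 called genes. The median over all 542 IDR summits was 45.5%.

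Just below the IDR set stood vars-1, encoding the mitochondrial valine enzyme. The signal at vars-1 was 36.79 in the joined list (rank 597), 35.37 in replicate 1 (rank 428) and 6.561 in replicate 2 (rank 15450). Replicate 1 ranked it among its 542 strongest regions, and replicate 2 ranked it near the middle of its 30000 candidates. Its summit lay between genes, 93 bp upstream of the annotated 5′ end, and no other protein-coding gene has that summit in its window. The bases within 50 bp of it (chrV:8031268-8031368, plus strand) are shown as the nearest miss, and they hold none of the words.
vars-1: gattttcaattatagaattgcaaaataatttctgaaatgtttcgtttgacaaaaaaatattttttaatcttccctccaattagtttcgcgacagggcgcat

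By far the strongest synthetase summit was at fars-1, which encodes the catalytic alpha subunit of the cytosolic phenylalanine enzyme. The signal at fars-1 was 340.5 in the joined list (rank 38), 241.5 in replicate 1 (rank 40) and 96.96 in replicate 2 (rank 35). Only 63 of the 8579 protein-coding genes with a joined candidate had a higher value. The summit is not close to fars-1, however: it lies on chromosome I at 6215562, 877 bp upstream of the most upstream annotated fars-1 5′ end. It is 165 bp upstream of rbm-5, a divergent gene for an RNA-binding protein, and inside the annotated 3′ UTR of T08B2.15. Whether this signal belongs to fars-1, to rbm-5 or to both cannot be told apart by position. The beta subunit of the same enzyme, fars-3, had 26.25 in the joined list (rank 1370), 19.54 in replicate 1 and 9.481 in replicate 2, below the IDR set in each. The summit assigned to fars-3 was 419 bp upstream, in the 3′ UTR of zyg-9, a gene for a microtubule-associated protein. Both subunits are needed for the cytosolic enzyme, and their joined signals thus stand at 340.5 and 26.25.

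The cytosolic asparagine enzyme, nars-1, was the weakest call. The signal at nars-1 was 39.4 in the joined list (rank 538), 15.21 in replicate 1 (rank 3398) and 24.45 in replicate 2 (rank 207). The replicates place it in opposite order to vars-1: replicate 2 ranks nars-1 among its 542 strongest regions and replicate 1 does not. Across the cut, nars-1 at 39.4 and vars-1 at 36.79 are the synthetase values just inside and just outside. The nars-1 summit lay between genes on chromosome I at 7090499, 437 bp upstream of the nearest nars-1 5′ end. It was nearer to the divergent nduf-6, at 241 bp, which encodes a subunit of respiratory complex I.

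**Figure D2:**
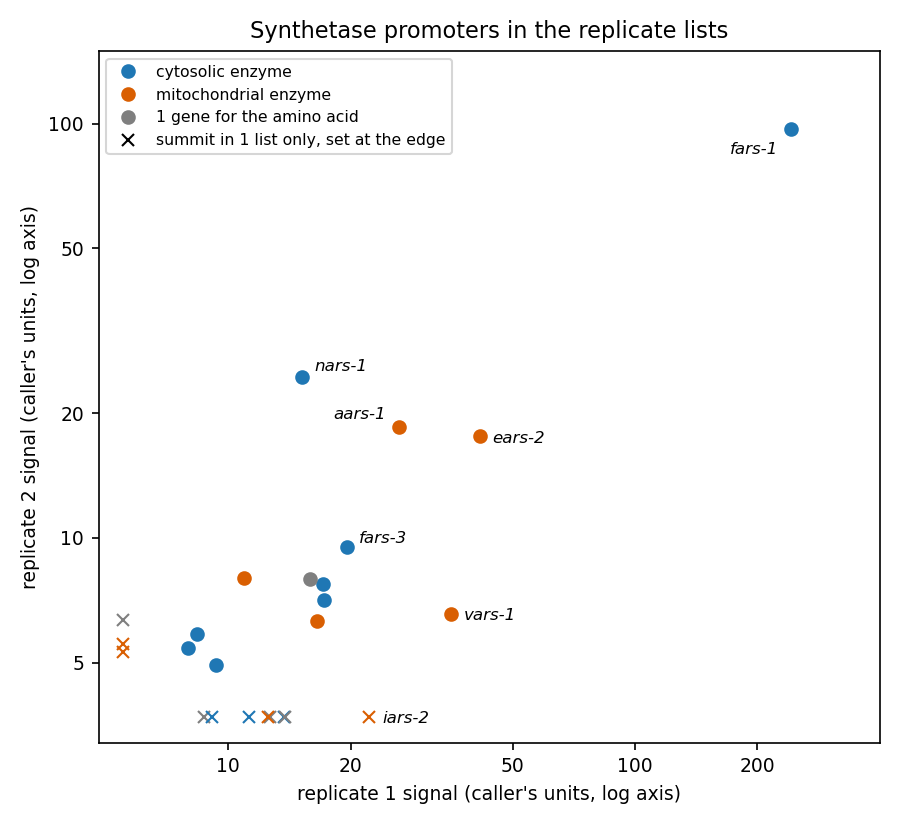
Signal of the strongest summit in the promoter window in replicate 1 (horizontal) and replicate 2 (vertical), both log axes in the caller's units, for the synthetase genes with a candidate in at least 1 replicate. Crosses mark genes with a summit in 1 list, set at the edge of the other axis. fars-1 is highest in both, and nars-1 and vars-1 lie on opposite sides of the other points.

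In replicate 1, 3 synthetase genes had a summit among the 542 strongest regions (background 3.46%): ears-2, fars-1 and vars-1. In replicate 2 there were 4 (background 2.77%), the same genes as in the IDR set. Both replicates placed ears-2 and fars-1 among their strongest 542, which is 2 of 32 genes against a background of 2.25%. Replicate 1 had a candidate of any strength at 22 synthetase genes (background 42.6%), replicate 2 at 17 (background 41.9%), and both had one at 14 (background 23.4%). These counts are of genes and do not require the same site in both replicates. At sars-1, with 1 summit in each replicate, the summits were at 10003652 and 10002951. With 2 replicates, the spread between them can be given but no test of a single gene was possible.

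A joined candidate of any strength lay at 22 of the 32 genes, or 68.8% (interval 51.4% to 82%), against a background of 43%. Synthetase genes have 1 to 5 annotated 5′ ends, and more ends can mean more sequence searched. The shares set beside a background were not corrected for this. With only the most upstream 5′ end, 3 synthetase genes had an IDR summit, against 3.36% of all genes. The compartments had similar shares, at 10 of 14 cytosolic, 8 of 12 mitochondrial and 4 of 6 single genes. The median joined signal of the 22 genes was 21.35, and that of all 8579 protein-coding genes with a candidate was 16.17. It was 21.68 for the 10 cytosolic genes (range 12.12 to 340.5), 24.57 for the 8 mitochondrial genes (range 12.6 to 59.3) and 15.54 for the 4 single genes. The order of these medians was not the same in the replicates. Mitochondrial genes were above cytosolic genes in replicate 1 (22.24 and 13.73), and below them in replicate 2 (6.561 and 7.405). In replicate 2 the synthetase median of 7.071 did not exceed the 7.106 of all genes with a candidate.

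With the list lengthened to 3 times the IDR set, to joined rank 1626, 8 of 32 genes had a summit in the window (25%, interval 13.3% to 42.1%) against a background of 6.62%. The genes added to the 4 were vars-1, fars-3, mars-1 and dars-1. The cytosolic methionine enzyme, mars-1, had 26.3 in the joined list (rank 1360), 17.11 in replicate 1 and 7.738 in replicate 2. The summit assigned to mars-1 lay between genes, 417 bp upstream, and also in the window of the divergent F58B3.6. The cytosolic aspartate enzyme, dars-1, had 25.19 in the joined list (rank 1615), 17.15 in replicate 1 and 7.071 in replicate 2. Its summit was 548 bp upstream, in an intron of the divergent ctr-9 and also in the ctr-9 window, 123 bp from one of its 5′ ends. The ctr-9 gene encodes a subunit of the PAF1 transcription elongation complex. By compartment these were 5 of 14 cytosolic genes, 3 of 12 mitochondrial genes and none of the 6 single genes, which again allows up to 50%. Just past this limit came the mitochondrial asparagine enzyme nars-2 (24.6, rank 1800), the glutamine enzyme qars-1 (24.6, rank 1801) and the mitochondrial isoleucine enzyme iars-2 (24.54, rank 1821). The joined nars-2 and qars-1 summits lay in introns of these genes and counted through an inner 5′ end, 307 and 593 bp away. At qars-1 the strongest replicate 1 summit lay elsewhere, 264 bp upstream of the most upstream 5′ end (signal 15.91).

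The other 11 genes with a joined candidate lay between 12.03 (hars-1, the histidine enzyme) and 18.17 (sars-1, the cytosolic serine enzyme), near or below the median of all genes. The remaining 10 genes had no joined candidate: cars-1, ears-1, fars-2, pars-1, pars-2, rars-1, rars-2, tars-1, yars-1 and yars-2. Of these, cars-1 and yars-1 had a weak candidate in replicate 1 and pars-2 one in replicate 2. The other 7 had none in any list. They include ears-1, the cytosolic glutamate enzyme, and fars-2, the mitochondrial phenylalanine enzyme, whose counterparts in the other compartment were both called.

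The 11 amino acids with a cytosolic and a mitochondrial gene allow the compartments to be set side by side. The cytosolic gene had the higher joined signal for 4 amino acids and the mitochondrial gene for 4, and for 3, namely arginine, proline and tyrosine, neither had a joined candidate. In replicate 1 the counts were 3 and 6, with 2 pairs lacking a candidate, and in replicate 2 they were 4 and 4, with 3 lacking one. The order was the same in the joined list and in both replicates for alanine, glutamate, aspartate and phenylalanine. For alanine the cytosolic aars-2 had 17.88 and the mitochondrial aars-1 43.29. For glutamate ears-1 had no candidate and ears-2 had 59.3. For isoleucine iars-1 had 13.94 and iars-2 24.54, and for leucine lars-1 had 12.12 and lars-2 15.42. The lars-2 summit lay in a coding exon of lars-2, 11 bp from an inner 5′ end. In the other direction, asparagine had 39.4 at the cytosolic nars-1 and 24.6 at nars-2, and aspartate 25.19 at dars-1 and 12.6 at dars-2. The nars-2 value is from the intronic summit described above. Phenylalanine had 340.5 at fars-1 and no candidate at fars-2, and serine had 18.17 at sars-1 and 17.73 at sars-2. For serine both replicates had the opposite order, with 9.334 at sars-1 and 10.93 at sars-2 in replicate 1 and 4.925 and 7.986 in replicate 2. The strongest summits of the replicates lay at different places there. In replicates 1 and 2 they were at 10003652 and 10002951 for sars-1, and at 4357875 and 4358675 for sars-2. The sars-2 window held 2 summits in replicate 2, of which the stronger is given. Asparagine was reversed in replicate 1, with 15.21 at nars-1 and 16.52 at nars-2. Isoleucine was reversed in replicate 2, where iars-1 had 5.421 and iars-2 no candidate. In no pair did both genes have an IDR summit.

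Other splits of the family were made after the values were seen. Of the 15 class I enzymes, ears-2 was called, and of the 17 class II enzymes, aars-1, fars-1 and nars-1 were (6.67% and 17.6%, beside 3.47% of all genes). A group of 8 genes with mammalian counterparts in the multi-synthetase complex, a large assembly of cytosolic synthetases, had no IDR summit. That allows a share of up to 37.5% and so does not set them apart from the 3.47% of all genes. The group does not hold every gene with such a counterpart, so its shares are for these 8 only. Of these 8, 6 had a joined candidate (75%, beside 43% of all genes), with dars-1 and mars-1 the strongest.

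All 4 synthetase IDR summits also lay in the promoter window of another protein-coding gene. Genes with such a summit were 12.5% of the 32 synthetase genes, against a background of 2.42% of all genes. Among all 694 genes with an IDR summit, 483 (69.6%) shared theirs in this way. When each summit was given only to the gene with the nearest 5′ end, aars-1 and ears-2 kept theirs, against a background of 2.24%. The fars-1 summit then went to rbm-5 and the nars-1 summit to nduf-6. By that rule both called genes encode mitochondrial enzymes, and the 0 of 14 cytosolic genes allows a share of up to 21.4%. Across all genes the nearest-end rule kept 447 of 694 calls (64.4%), beside 2 of 4 for the synthetases.

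**Figure D3:**
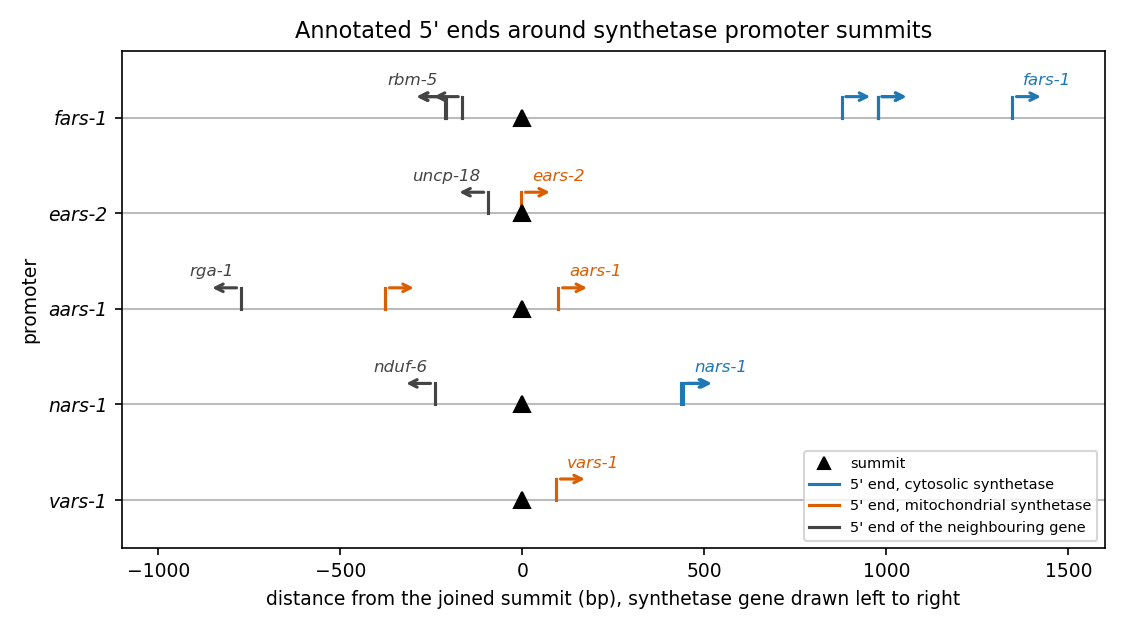
Annotated 5′ ends around the joined summit (triangle, at 0) of the 4 synthetase genes with an IDR summit and of vars-1, in bp, drawn so that the synthetase gene is read left to right. Coloured ticks are 5′ ends of the synthetase gene and dark ticks those of the divergent neighbour. For fars-1 and nars-1 the neighbour's 5′ end is nearer the summit, and for ears-2 and aars-1 the synthetase's own.

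The 4 called genes share an arrangement: each has a divergent protein-coding neighbour whose 5′ end lies within 1500 bp. This limit was set after the values were seen. The rule looked only at 5′ ends on the opposite strand and did not ask whether another gene lies between them. At fars-1 the arrangement is less plain, since the summit between the fars-1 and rbm-5 ends lies in the 3′ UTR of T08B2.15. The distances between 5′ ends were 92 bp for ears-2 and uncp-18, 397 bp for aars-1 and rga-1, 678 bp for nars-1 and nduf-6, and 1042 bp for fars-1 and rbm-5. Such a neighbour was found for 15 of 32 synthetase genes (46.9%) and for 4665 of all protein-coding genes (23.4%). IDR summits lay at 4 of the 15 synthetase genes with such a neighbour and at none of the 17 others. Over all genes the shares were 9.52% with such a neighbour and 1.63% without. The 17 genes are too few for the absence of a call to set them apart from the latter share. Where a head-to-head pair stands close together, 1 summit can fall in both windows, so the shares with a neighbour are partly set by the rule. The other 11 divergent synthetase genes without an IDR summit include dars-1, with its neighbour at 181 bp, sars-1 at 224 bp and ears-1 at 265 bp.

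A second arrangement is a gene that follows closely behind another on the same strand, as inside C. elegans operons, whose genes are transcribed together. Here 11 of 32 synthetase genes had a same-strand gene ending within 500 bp upstream of their most upstream 5′ end, against 18.1% of all genes. None of the 11 had an IDR summit, and over all genes so placed the share was 2.9%. These 11 genes are too few for the absence of a call to set them apart from that share. One, iars-2, follows C25A1.16 after 489 bp, and an IDR summit lies at the promoter of that upstream gene. That summit (rank 369, signal 53.99) is 1809 bp from the nearest iars-2 5′ end, shared by C25A1.16 and nola-3, which encodes a subunit of H/ACA ribonucleoproteins. It enters the iars-2 window when the window is widened to 2000 bp upstream. Whether any of these pairs is transcribed as an operon was not tested. For the 28 synthetase genes without an IDR summit, the nearest one on the chromosome was 1.81 to 426 kb away, with a median of 43.1 kb.

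The words in capitals above were counted across all sets of windows. Since they were picked as frequent at IDR summits, higher shares at IDR summits than in other windows were set by that choice. The contrast between called and other synthetase genes is therefore a description and no test. At least 1 of the 3 words of 6 bases was found within 50 bp of the summit for 4 of 4 called synthetase genes. The share was 55% of all 542 IDR summits, 6.83% of flanking windows centred 300 bp away, and 7.21% of joined candidates outside the IDR set. The window at fars-1 held CGTAAA and ACGCGC, that at nars-1 held GACGCA, that at aars-1 CGTAAA within CGTAAATC, and that at ears-2 ACGCGC. Of the 18 synthetase genes with a candidate outside the IDR set, 1 held a word, kars-1, the lysine enzyme, with ACGCGC. The signal at kars-1 was 16.91 in the joined list and 13.77 in replicate 1, with no candidate in replicate 2. Within the fixed 551 bp around the gene start, without regard to summits, 11 of 32 synthetase promoters held a word (34.4%), and so did 38.7% of all promoters. The median G and C content was 44.1% at the 4 called summits and 29.7% at the other 18, and its part in the word counts was not tested. Over the 18 windows G and C ran from 19.8% to 45.5%. The kars-1 window, whose word lies at its outer edge, was at 21.8%. Those of gars-1 and lars-2, which held no word, were at 45.5%.

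Genes that act next to the synthetases gave a wider view of the same pathway, to be read against 3.47% of all genes with an IDR summit and 43% with a joined candidate. Of 19 genes for tRNA processing, modification and export, 1 (5.26%) had an IDR summit: pus-1, for a pseudouridine synthase, with a joined signal of 41.39 (rank 500). The next were elpc-4 (34.94, with no candidate in replicate 1), trm-1 (34.55) and trm-2A (29.52), all below the IDR set, and 14 of the 19 had a candidate. Of 6 genes for cytosolic elongation factors or their subunits, grouped by symbol, 4 had an IDR summit. These were eef-1A.1 (164.8), eef-2 (99.92), eef-1G (85.9) and eef-1B.1 (71.01), and in the joined list fars-1 was the 1 synthetase gene above any of them. In replicate 2 nars-1 (24.45) was also above eef-1A.1 (22.37), eef-1G (23.33) and eef-1B.1 (13.74), and aars-1 and ears-2 were above eef-1B.1. None of the 4 genes for mitochondrial elongation factors had one. Of 3 genes of the response to amino acid shortage, none had an IDR summit, and gcn-2, for the kinase that senses uncharged tRNA, had 33.09 and gcn-1 25.46 in the joined list. Neither had a candidate in replicate 2. The 4 synthetase genes outside the symbol rule also had no IDR summit, with 15.82 at glp-4 and no candidate at the other 3. Lists of 3 or 4 genes are too small for the absence of a call to set them apart from all genes.

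**Figure D4:**
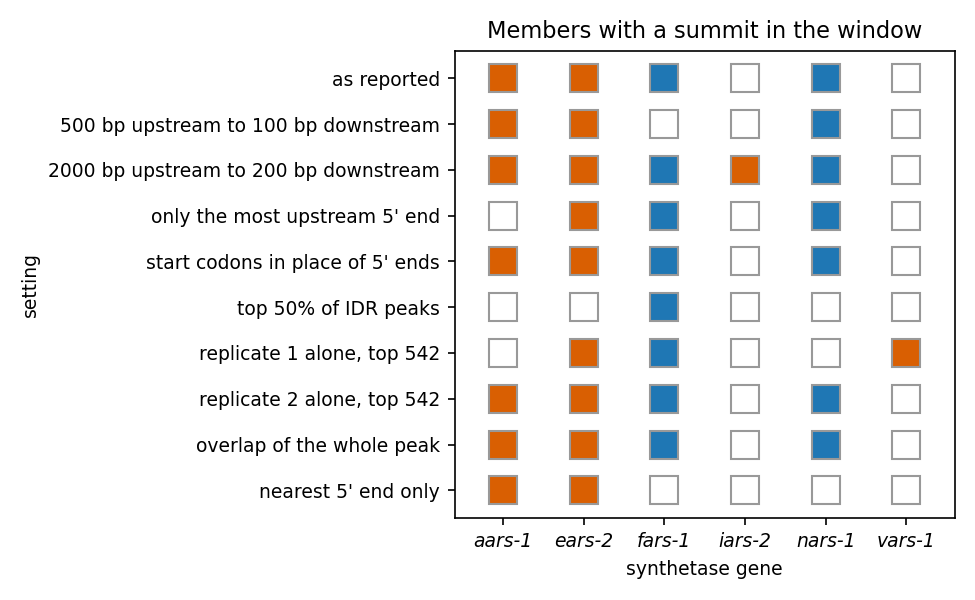
Synthetase genes with a summit in the window (filled squares, blue for cytosolic and orange for mitochondrial enzymes) under the rule as reported and under 9 other settings. Genes filled under at least 1 setting are shown. ears-2 is filled in 9 of the 10 lines, and fars-1, aars-1 and nars-1 drop out under some, while iars-2 and vars-1 each enter under 1.

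The calls rested on the rule to different degrees. The call at ears-2 was lost only when the IDR set was cut to its stronger 50%, under which fars-1 alone remained. The call at fars-1 was lost with a window of 500 bp upstream to 100 bp downstream and with the nearest-end rule. The call at aars-1 was lost in replicate 1 alone, and with the most upstream 5′ end. The call at nars-1 was lost in replicate 1 alone and with the nearest-end rule. The 6 single genes had no call under any of the 9 other settings.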

How the data were processed

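The lists analysed are narrowPeak files on ce11 (WBcel235) that the authors deposited: 30000 candidate regions for each replicate and for the joined reads, called with a control per the deposited notes, and 542 IDR regions derived from both replicates and the joined list. Their signal column is the deposited caller's enrichment signal, used unchanged. The aligner, the caller and the scale were not given in the sources used here. Lists on ce10 were not used. Fragments were of 150 to 350 bp per the labels. The 5′ ends (29784) came from Ensembl release 115 and sequence from RefSeq's copy of the same assembly. Python 3.11.15 was used, with scipy 1.17.1, and the assignment of summits was tested on simulated data. Shares carry 95% Wilson intervals, and a count of 0 the limit of 3 counts, both for counting error only. The members, lists, words and windows were chosen with earlier results of these data known. Named are all called members, those within 3 times the IDR set, both genes of each compartment pair, genes sharing a called summit, and the strongest of each pathway list. Other named genes were chosen after their values were seen.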

Additional observations from a re-analysis of the deposited data

How the results depend on the processing

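Of 70 alternative values computed, 51 stayed near the reported one (counts within 1.5 times, medians within the SD between the replicates' medians) and 19 moved. That SD is wide for mitochondrial genes. With the stronger 50% of IDR regions, the calls fell to 1 in all, 1 cytosolic and 0 mitochondrial, with 1 shared summit. With the nearest 5′ end only they were 2 in all and 0 cytosolic. A window of 500 bp upstream to 100 bp downstream gave 1 cytosolic call, 2 shared summits and a cytosolic median signal of 15.18. The most upstream 5′ end alone gave 1 mitochondrial call. Leaving out each replicate in turn gave 1 to 2 cytosolic calls, 2 to 4 shared summits, and medians of 7.071 to 14.49 for all members, 7.405 to 13.73 for cytosolic and 6.561 to 22.24 for mitochondrial genes; these medians are on the scale of single replicates. Counting genes without a candidate as 0 gave medians of 15.3 for all, 16.53 for cytosolic and 16.58 for mitochondrial genes. Chosen after seeing the data, a replicate list of 1084 regions gave 3 of 4 called genes in both replicates, and word windows of 25 and 100 bp to each side of the summit gave 3 and 4 of 4. No paired analysis was possible because there is 1 group. Unknown depth limits what the weak candidates can show.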
